A study of Mus musculus with 8 samples.

Results

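The hypoxia genes described here are *Hif1a*, *Epas1*, *Egln1*, *Egln3*, *Vegfa*, *Bnip3*, *Slc2a1*, *Pgk1*, *Ldha* and *Pdk1*, 10 genes of the 30789 gene symbols on the array. They were found by the gene symbol that the deposited annotation gives each probe, which gave 21 of the 45281 probes. Macrophages were drawn into the peritoneal cavity of 8-week-old C57/BL6 mice with thioglycollate, an irritant broth, and cultured. The 4 control cultures were mock-treated and the other 4 received acetylated low density lipoprotein (Ac-LDL), a modified lipoprotein that fills macrophages with cholesterol, at 120 μg/ml for 24 h. Each sample was measured on 1 array of an Illumina bead chip, and both groups carry the replicate numbers 1 to 4. Whether a replicate came from 1 mouse or from pooled mice, and the oxygen tension of the cultures, are not given in the sources used here. The first slide held replicates 1 and 2 of both groups, and the second held replicates 3 and 4.

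Cells sense oxygen through hypoxia-inducible factors (HIFs), which pair an oxygen-regulated alpha subunit, such as those encoded by *Hif1a* and *Epas1*, with the stable partner ARNT. In the presence of oxygen, the prolyl hydroxylases encoded by *Egln1* and *Egln3* mark the alpha subunit for destruction through the VHL protein. When oxygen falls, the subunit accumulates, binds short DNA elements with a core of ACGTG or GCGTG and turns on genes of glucose uptake, glycolysis, vessel growth and mitochondrial turnover. In macrophages the same system also serves inflammatory activation, and *Angptl4*, the gene on which the study centres, is a target of both HIF-1 and the lipid-sensing PPAR receptors. The question put to the arrays was whether the hypoxia genes moved together with the lipid response to Ac-LDL.

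The promoters are shown first, because HIF binds such core letters. Windows of 300 bases, 250 before and 50 after the transcription start, were found for 9 of the 10 genes in RefSeq (GRCm38.p6), 12 windows in all, and not for *Epas1*. The letters ACGTG or GCGTG, searched on both strands so that CACGT and CACGC also count, and with overlapping matches such as CACGTG taken as 1 site, stood in 10 of the 12 windows and in at least 1 window of each of the 9 genes. They stood in 43.8% of all 32851 windows of this length, and 46.7% of 27025 genes had a match in any window, so that a match is common. Of the 2 *Vegfa* windows, the matches stood in that of the start further downstream, and the other window held 0. The 250 bases before the start are printed for 4 genes, the glucose transporter gene *Slc2a1*, the glycolytic genes *Pgk1* and *Ldha* (the first of its 2 windows) and the oxygen sensor gene *Egln3*, with the matching letters in capitals. The regions are chr4:119108495-119108744 on the plus strand, chrX:106186850-106187099 on the plus strand, chr7:46845554-46845803 on the plus strand and chr12:54203875-54204124 on the minus strand.
Slc2a1: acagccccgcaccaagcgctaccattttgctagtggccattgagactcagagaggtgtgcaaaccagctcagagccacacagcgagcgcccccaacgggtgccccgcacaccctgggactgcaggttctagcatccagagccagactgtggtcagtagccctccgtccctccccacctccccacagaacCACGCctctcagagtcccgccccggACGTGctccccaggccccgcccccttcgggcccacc
Pgk1: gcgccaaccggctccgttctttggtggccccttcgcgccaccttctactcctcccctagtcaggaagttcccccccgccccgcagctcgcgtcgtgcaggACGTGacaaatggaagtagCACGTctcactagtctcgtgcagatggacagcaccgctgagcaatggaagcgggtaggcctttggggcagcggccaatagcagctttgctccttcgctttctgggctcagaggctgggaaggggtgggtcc
Ldha: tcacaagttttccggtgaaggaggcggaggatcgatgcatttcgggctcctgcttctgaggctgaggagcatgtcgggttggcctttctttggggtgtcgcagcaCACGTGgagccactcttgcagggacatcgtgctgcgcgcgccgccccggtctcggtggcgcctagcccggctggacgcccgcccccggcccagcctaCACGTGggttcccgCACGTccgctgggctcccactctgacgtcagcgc
Egln3: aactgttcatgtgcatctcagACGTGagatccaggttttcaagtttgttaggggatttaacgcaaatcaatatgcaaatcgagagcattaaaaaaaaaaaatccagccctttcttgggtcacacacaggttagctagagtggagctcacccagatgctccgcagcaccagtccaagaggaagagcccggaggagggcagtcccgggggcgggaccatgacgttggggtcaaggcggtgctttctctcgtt
*Pgk1* had 2 sites close to each other, *Slc2a1* had 2 within the last stretch before the start, *Ldha* had 3 in the printed bases, and *Egln3* had 1 far from the start. A match is a run of letters and not evidence of binding.

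No hypoxia gene passed the test for a difference between Ac-LDL-treated and control macrophages. Of the 9 genes with a tested probe, 0 had an adjusted p under 0.05 in limma's moderated test of 4 Ac-LDL against 4 control arrays, where 0.0483% of all 12423 genes were called (0.00805% higher and 0.0402% lower, and of the 17122 probes 0.00584% and 0.035%), and 0 had an unadjusted p under 0.05, where 5.21% of all genes had one. The methods' t-test, adjusted in the same way, called 0 of them and 0 of all genes. A limma fit that pairs arrays of the same replicate number (the replicate block) called 0 of the 9 as well, where 0.491% of all genes were called. In it the adjusted p of the 9 genes ran from 0.149 to 0.965. The standard errors given below for the Ac-LDL differences of these genes are from the fit without a block. With the block each was smaller. The mean was higher with Ac-LDL for 8 of the 9 genes, by a median of 0.08 on the log2 scale, and the differences ran from -0.02 for *Egln3* to 0.34 for *Pdk1*. The groups overlapped for all 9 genes, where 3.86% of all genes had groups that did not overlap (2.12% higher and 1.75% lower with Ac-LDL). All intensities given are log2 values after background correction and quantile normalization. A gene was represented by its brightest tested probe, that is, one detected above the negative controls of the array (detection p not over 0.05) on 4 or more of the 8 arrays.

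**Figure D1:**
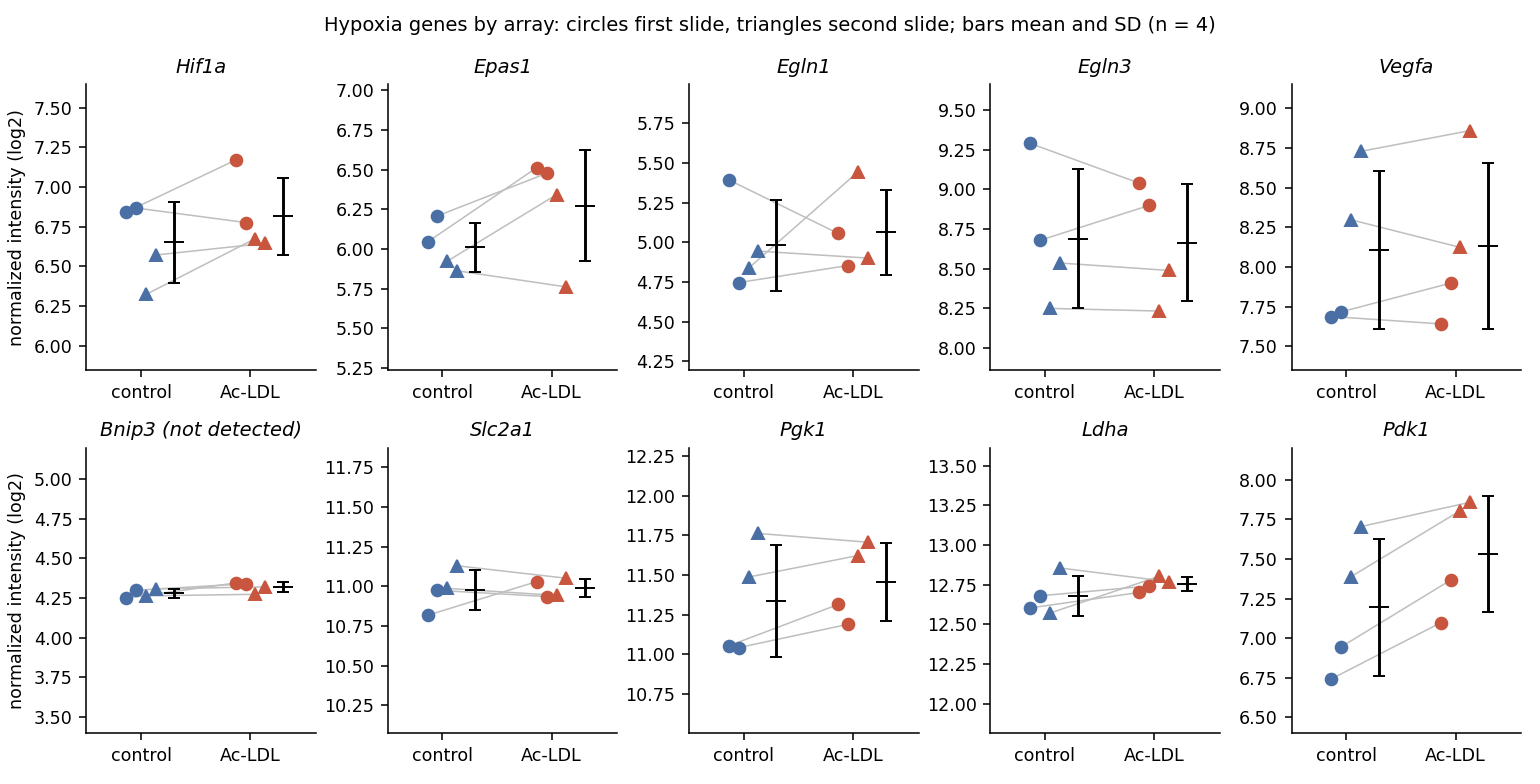
Normalized log2 intensity (y axis, a span of the same height in every panel) of each hypoxia gene on the 4 control (blue) and 4 Ac-LDL (red) arrays, with grey lines joining arrays of the same replicate number, circles for the first slide, triangles for the second, and bars for the mean and SD (n = 4). In every panel the groups overlap, circles and triangles separate for *Hif1a*, *Egln3*, *Vegfa*, *Pgk1* and *Pdk1*, and the *Bnip3* probe was detected on 0 of the 8 arrays.

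The transcripts of the HIF alpha subunits were present at modest intensity in both groups. The *Hif1a* probe (ILMN_2852034, chromosome 12) read 6.84, 6.87, 6.32 and 6.57 on control arrays 1 to 4 and 7.17, 6.78, 6.68 and 6.65 on the Ac-LDL arrays. Control arrays 1 and 2 lay above 3 of the 4 Ac-LDL arrays, so the groups overlapped. The control mean was 6.65 ± 0.26 (SD, n = 4) and the Ac-LDL mean 6.82 ± 0.24 (SD, n = 4), which differed by 0.17 on the log2 scale (standard error 0.16, adjusted p = 0.980 from limma). *Epas1*, which encodes HIF-2 alpha, read 6.04, 6.21, 5.92 and 5.86 on the control arrays and 6.51, 6.48, 6.34 and 5.76 on the Ac-LDL arrays with its brighter probe (ILMN_3052632, chromosome 17). Of the Ac-LDL arrays, 3 lay above every control array and array 4 lay below all of them. The log2 difference was 0.26 (standard error 0.17, adjusted p = 0.961 from limma). The dimmer *Epas1* probe (ILMN_3129160), which was detected on 4 control and 2 Ac-LDL arrays, had a difference of the other sign, -0.21 (adjusted p = 0.961), so that the 2 probes of the gene did not point the same way. The other 2 *Hif1a* probes were detected on 0 arrays.

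The hydroxylases that oppose the factors did not differ between the groups beyond their spread. *Egln3*, itself a HIF target, had the widest spread of the pair. Its detected probe (ILMN_2605819, chromosome 12) read 9.29, 8.68, 8.25 and 8.54 on the control arrays and 9.04, 8.90, 8.23 and 8.49 on the Ac-LDL arrays. Within each group, arrays 1 and 2 were higher than arrays 3 and 4. The log2 difference was -0.02 (standard error 0.23, adjusted p = 0.998 from limma), and the other 2 *Egln3* probes were detected on 0 arrays. *Egln1*, the main oxygen sensor of most cells, was close to the detection limit, with deposited signals of 48.2 to 71.3 and detection on 7 of the 8 arrays. Its mean was 4.98 ± 0.29 (SD, n = 4) without and 5.06 ± 0.27 (SD, n = 4) with Ac-LDL (log2 difference 0.08, adjusted p = 0.992 from limma).

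The 3 *Egln1* probes are nearly the same oligonucleotide, and they are shown because they nevertheless read differently this close to background. They start at positions 1395, 1396 and 1399 of the annotated transcript and share 46 of their 50 bases. The first 30 bases of each are given here, with the 26 bases that all 3 of these stretches hold in capitals.
ILMN_2617086: ctcaATCGTGGCCATCGGCTCCTTGGACAG
ILMN_2617087: tcaATCGTGGCCATCGGCTCCTTGGACAGc
ILMN_2617090: ATCGTGGCCATCGGCTCCTTGGACAGccac
In this order the probes were detected on 0, 2 and 7 of the 8 arrays. Their deposited signals reached at most 51.7, 57.0 and 71.3, and on single arrays the standard error over the beads was between 3.49% and 7.05% of the signal. The log2 differences within pairs of the same number ran from -0.25 to 0.11, 0.02 to 0.29 and -0.34 to 0.61 in this order. Only the last probe was tested. A gene read this close to background carries little information about a change.

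*Slc2a1* and *Ldha* were bright and varied little between arrays. *Slc2a1* encodes the glucose transporter GLUT1, and its probe (ILMN_1258159, chromosome 4) read 10.82, 10.97, 10.99 and 11.13 on the control arrays and 11.03, 10.93, 10.94 and 11.05 on the Ac-LDL arrays. The Ac-LDL arrays fell inside the range of the control arrays. The log2 difference was 0.01 (standard error 0.09, adjusted p = 0.998 from limma). The 95% interval of the fold change ran from 0.872 to 1.17. *Ldha*, the enzyme that turns pyruvate into lactate, read 12.60, 12.68, 12.57 and 12.86 on the control arrays and 12.70, 12.74, 12.80 and 12.77 on the Ac-LDL arrays (ILMN_1257965, chromosome 7). Here too the Ac-LDL arrays lay within the control range, and the fold change was 1.05 (95% interval 0.913 to 1.22, adjusted p = 0.987 from limma). For *Slc2a1*, *Ldha* and *Egln1*, 3 genes, the interval lay below a 1.4-fold rise, the limit set in the study for higher genes, though for *Egln1* this rests on signals near background. With the replicate number as a block, which takes out what arrays of the same number share, it lay below that limit for 7 of the 9 genes, *Egln1* again among them, all but *Epas1* and *Pdk1*.

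*Pgk1*, which encodes a glycolytic kinase, and *Pdk1*, whose product restrains the oxidation of pyruvate in the mitochondrion, varied more. The detected *Pgk1* probe (ILMN_2651886, chromosome X) read 11.05, 11.04, 11.49 and 11.76 on the control arrays and 11.31, 11.19, 11.62 and 11.71 on the Ac-LDL arrays. Its arrays 3 and 4 were higher than arrays 1 and 2 in both groups. The log2 difference was 0.12 (standard error 0.18, adjusted p = 0.989 from limma), and the other 2 *Pgk1* probes were detected on 0 arrays. *Pdk1* (ILMN_1229318, chromosome 2) read 6.74, 6.95, 7.39 and 7.70 on the control arrays and 7.10, 7.37, 7.80 and 7.86 on the Ac-LDL arrays. It was higher with Ac-LDL in 4 of 4 pairs of the same number, by 0.15 to 0.42, and was the 1 hypoxia gene to be so, where 11.6% of all genes were. The log2 difference was 0.34 (standard error 0.23, adjusted p = 0.963 from limma), and with replicates blocked by number its adjusted p was 0.149 (unadjusted 0.00332), so that it was not called. *Epas1* was the other gene with an unadjusted p under 0.05 in that fit (0.0368, adjusted p = 0.327), where 13.9% of all genes had one. Its dimmer probe had an unadjusted p of 0.0275 in the other direction (log2 difference -0.21, lower in 4 of 4 pairs, adjusted p = 0.305), and the mean of both probes differed by 0.03.

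*Vegfa*, the gene of the main vessel growth factor, had 2 detected probes. The brighter (ILMN_2484527, chromosome 17) read 7.69, 7.72, 8.30 and 8.73 on the control arrays and 7.64, 7.90, 8.12 and 8.86 on the Ac-LDL arrays, a log2 difference of 0.02 (standard error 0.29, adjusted p = 0.999 from limma). The dimmer (ILMN_3121255) had a difference of 0.01 (adjusted p = 0.998). The remaining *Vegfa* probe was detected on 0 arrays. *Bnip3* encodes a mitochondrial protein of cell death and mitophagy, and its only probe (ILMN_2755900) was detected on 0 of the 8 arrays, with deposited signals of 34.6 to 39.1. The gene was therefore not tested, and nothing can be said of its direction. This probe begins with the following 30 bases.
Bnip3 probe: tttacataattactagacatagcctatatc

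Beside these genes, part of the lipid response passed the test on the same arrays. *Angptl4* was higher by 1.48 (standard error 0.20, adjusted p = 0.0484 from limma) and *Fdps*, an enzyme of the mevalonate pathway, lower by 1.69 (log2 difference -1.69, standard error 0.19, adjusted p = 0.0280 from limma). *Abcg1*, a cholesterol exporter and LXR target, had a difference of 0.48 (standard error 0.10, adjusted p = 0.221 from limma). *Angptl4*, also a HIF target, differed by 1.48 where *Pdk1*, the most extreme of the 9 hypoxia genes, differed by 0.34. With the replicate block, *Angptl4* (adjusted p = 0.000679) and *Fdps* (adjusted p = 0.0166) were called as well, while without control replicate 4 or without Ac-LDL replicate 1, 2 or 3 no probe on the array was called in the unblocked fit (0 in each). In a list of sterol synthesis genes, 22 of 22 tested genes were lower, with a median of -1.12, and 3 were called (14 with the replicate block, which called 0.491% of all genes). In the LXR list 5 of 5 tested genes were higher (median 0.48) and 0 were called (1 with the replicate block, *Apoe*), and in the PPAR list 8 of 8 were higher (median 0.35) and 1, *Angptl4*, was called. The median over all tested genes was -0.00059, and 49.8% of them were higher.

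**Figure D2:**
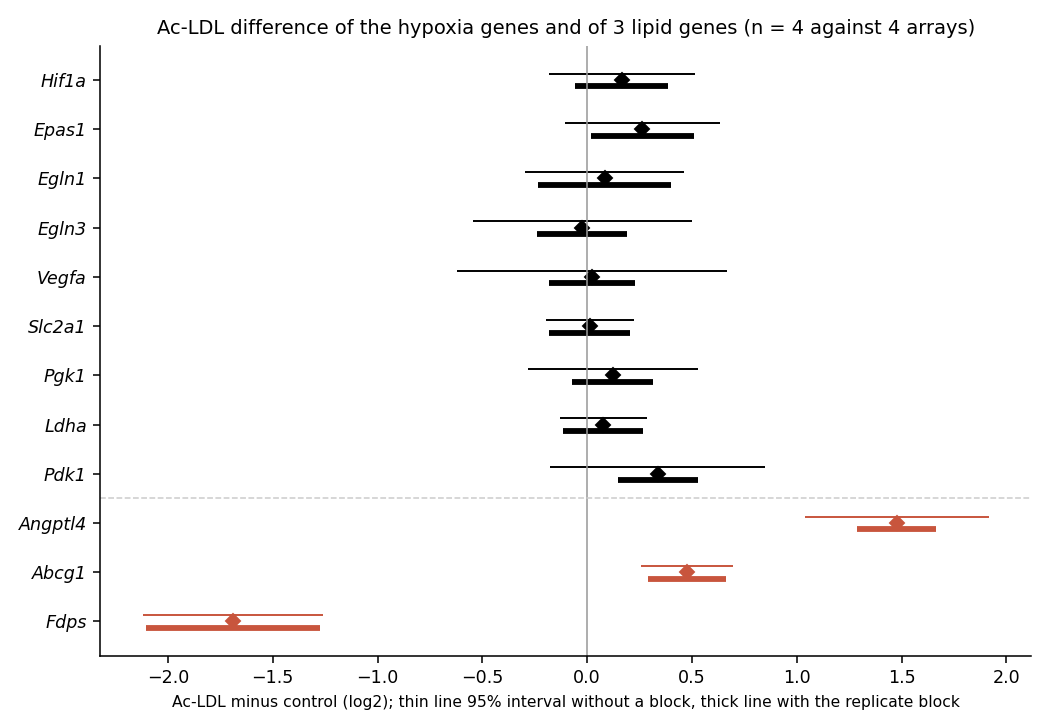
Log2 difference between Ac-LDL and control arrays (x axis) of the 9 tested hypoxia genes (black) and of *Angptl4*, *Abcg1* and *Fdps* (red), with the 95% interval without a block (thin lines) and with replicates blocked by number (thick lines), n = 4 against 4 arrays. All 9 thin intervals of the hypoxia genes include 0, and the thick ones do for all but *Epas1* (its brighter probe) and *Pdk1*, while those of the lipid genes lie away from 0.

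A wider hypoxia list outside these genes was divided in its direction. Of 54 further genes on the array, 44 had a tested probe. Of these, 20 were higher and 24 lower with Ac-LDL, with a median of -0.01. None was called by limma (0 of 44), by the methods' t-test (0) or with the replicate number or the slide as a block (0 and 0). An unadjusted p under 0.05 was found for 0 higher and 5 lower genes, where 2.66% of all genes were higher and 2.55% lower at that limit; the replicate block gave 5 higher and 8 lower genes, where 7.21% and 6.64% of all genes passed.

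By role, 3 of 7 genes of HIF regulation were higher with Ac-LDL and 0 were called (median -0.08). *Cited2*, a HIF target that competes with HIF for its coactivators, had a difference of -0.18 (adjusted p = 0.961), and the coactivator gene *Crebbp* had 0.25 (adjusted p = 0.967). Of 14 glycolysis genes, 10 were higher and 0 were called, with a median of 0.06. The most extreme of them was the aldolase gene *Aldoc*, with a control mean of 8.21 ± 0.57 (SD, n = 4), an Ac-LDL mean of 7.73 ± 0.38 (SD, n = 4) and a difference of -0.47 (adjusted p = 0.961 from limma, or 0.114 blocked). The hexokinase gene *Hk1*, with the next lowest unadjusted p, had 0.16 (adjusted p = 0.968). The highest difference of the list was 0.24, that of *Pfkfb4* (adjusted p = 0.979). Of 5 genes of mitochondria and survival, 5 were lower and 0 were called (median -0.25). They included *Bnip3l*, a mitophagy receptor gene related to *Bnip3*, and *Ddit4*, an inhibitor of mTOR signalling.

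*Bnip3l* read 12.50, 12.48, 12.53 and 12.54 on the control arrays and 12.41, 12.24, 12.15 and 12.26 on the Ac-LDL arrays. Every Ac-LDL array lay below the lowest control array (two-sided exact permutation p = 0.0286, the smallest that 4 arrays against 4 allow), where 1.75% of all genes did so. Its difference of -0.25 had a standard error of 0.09 (adjusted p = 0.841 from limma), and that of *Ddit4* was -0.29 (adjusted p = 0.854). Groups without overlap in either direction were found for 3.86% of all genes. Among the 44 tested genes of the wider hypoxia list, the other was *Jmjd1a*, the old symbol of the histone demethylase gene *Kdm3a*. It read 8.33, 8.16, 8.25 and 8.12 on the control arrays and 8.03, 7.92, 7.98 and 7.89 on the Ac-LDL arrays, a difference of -0.26 (standard error 0.09, adjusted p = 0.817 from limma).

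Of 11 genes of matrix, pH and chromatin, 4 were higher and 0 were called (median -0.02). Beside *Jmjd1a* they included *Bhlhb2*, now *Bhlhe40*, a repressor of the clock, with -0.42 (adjusted p = 0.887). With the replicate block, *Car9* (0.28, adjusted p = 0.258) was the 1 higher gene with an unadjusted p under 0.05, and 3 were lower. Of 7 vascular and iron genes, 3 were higher and 0 were called (median -0.12). The chemokine receptor gene *Cxcr4* had -0.38 (adjusted p = 0.921), and *Hmox1*, the haem-degrading enzyme gene that NRF2 also controls, had 0.42 (adjusted p = 0.949). Under the replicate block, the unadjusted p was below 0.05 for *Hmox1*, *Tfrc* (0.28) and *Trf* (0.24), all higher, and for *Cxcr4*, lower. Of all genes, 7.21% were higher and 6.64% lower at that limit. *Nos2* had no tested probe.

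**Figure D3:**
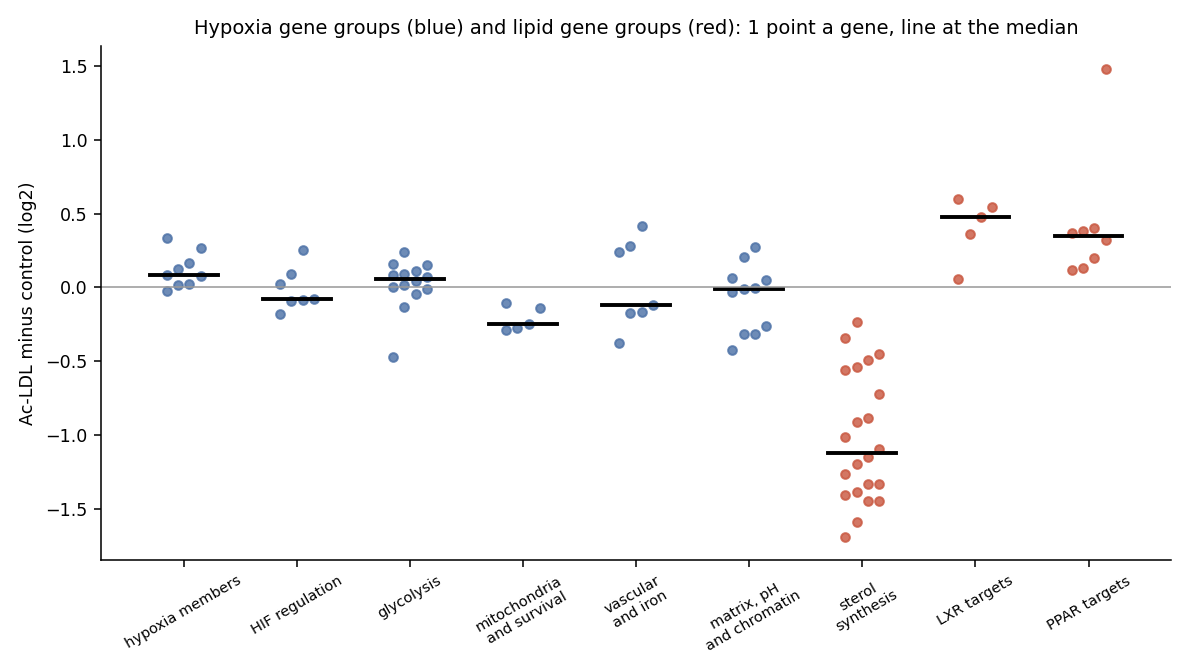
Log2 difference between Ac-LDL and control arrays (y axis) of every tested gene in the hypoxia groups (blue) and the lipid groups (red), 1 point a gene by its brightest tested probe, with a line at the group's median. The hypoxia groups have medians from -0.25 to 0.08, and all 5 genes of mitochondria and survival lie below 0, the sterol synthesis genes lie below it and the LXR and PPAR targets above it.

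The medians of the hypoxia genes and of the lipid lists were also set side by side within pairs of arrays of the same number. In pairs 1 to 4, the median difference of the 9 genes was 0.21, 0.15, 0.23 and -0.05, and that of the wider hypoxia list -0.06, -0.08, 0.04 and 0.0012. The sterol synthesis genes had medians of -0.76, -0.86, -1.47 and -1.25 in the same pairs. The LXR targets had 0.47, 0.22, 0.46 and 0.50, and the PPAR targets 0.30, 0.21, 0.42 and 0.37. In pair 3 the most extreme sterol median went with the highest median of the 9 hypoxia genes. In pair 4 the medians of all 3 lipid lists were larger in size than in pairs 1 and 2, while the median of the 9 hypoxia genes lay just below 0. With 4 pairs this is a description and was not tested.

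Where the hypoxia genes did differ was between the slides. In a fit with group and slide, 5 of the 9 genes were called (limma, adjusted p under 0.05), where 24.3% of all genes were. This fit took all arrays as independent, though arrays of the same number were taken to pair the samples. Calls and separations between the slides, here and below, therefore rest on fewer independent samples than arrays, and their p-values may be too small. *Vegfa* (difference second minus first slide 0.77, standard error 0.16, adjusted p = 0.00792), *Pdk1* (0.65, standard error 0.10, adjusted p = 0.00254) and *Pgk1* (0.49, standard error 0.09, adjusted p = 0.00457) were higher on the second slide. *Egln3* (-0.60, standard error 0.13, adjusted p = 0.0118) and *Hif1a* (-0.36, standard error 0.10, adjusted p = 0.0300) were lower. For each of these 5 genes the 4 arrays of one slide did not overlap with the 4 of the other, as for 25.5% of all genes. The call of *Hif1a* was lost without any 1 of control replicates 1, 2 or 3 or Ac-LDL replicates 1 or 4 (adjusted p = 0.0607 to 0.0976), whereas the other 4 calls held with each array left out in turn. For *Vegfa* the dimmer probe did not follow, with a slide difference of 0.12 (adjusted p = 0.475). *Slc2a1* (0.09, adjusted p = 0.481), *Ldha* (0.07, adjusted p = 0.597) and *Egln1* (0.02, adjusted p = 0.945) were not called, nor was *Epas1* (-0.34, adjusted p = 0.0706, or 0.0239 without Ac-LDL replicate 3).

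**Figure D4:**
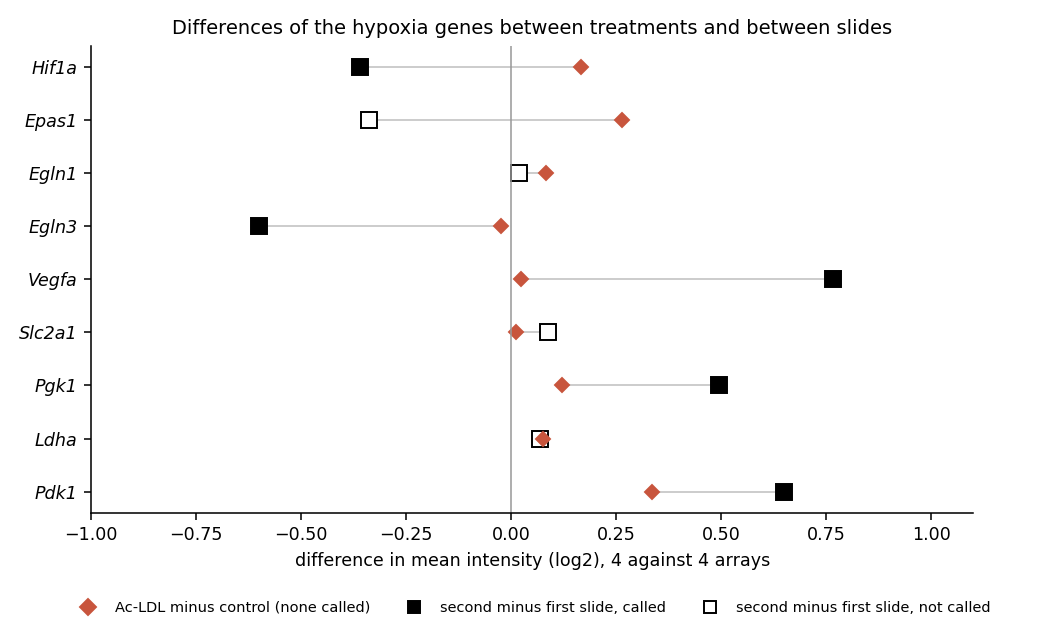
Log2 difference in mean intensity (x axis) of the 9 tested hypoxia genes between Ac-LDL and control arrays (red diamonds) and between the second and the first slide (squares, filled where called), 4 against 4 arrays each. The slide difference is the larger in size for 7 of the 9 genes, all but *Egln1* and *Ldha*. Over all tested genes, too, the median size was larger between slides (0.17) than between treatments (0.09).

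In the wider list, 8 genes were called higher and 13 lower on the second slide, of the 44 tested, where 11.8% of all genes were called higher and 12.5% lower. The slides held different biological replicates, so that slide and cell preparation cannot be told apart, and in RNA of whole cultures fewer cells of a type and less RNA per cell cannot be told apart either. Of 8 tested macrophage markers, 4 were called between the slides, all higher on the second. All 8 tested macrophage markers were detected on all 8 arrays, and the log2 of their summed level was 16.03 to 16.11 on the first and 16.18 to 16.24 on the second slide. *Emr1*, the gene of the F4/80 antigen, was higher by 1.19 on the second slide (adjusted p = 0.00115 from limma), and *Csf1r* by 0.79 (adjusted p = 0.00114), while *Cd68* differed by 0.06 (adjusted p = 0.670). With Ac-LDL, 5 of the 8 macrophage markers were higher, with a median of 0.04 and differences from -0.48 to 0.56. Under the replicate block 1 of them was called, where 0.491% of all genes were. This was *Mertk* (log2 difference 0.56, adjusted p = 0.0364, or 0.817 without the block). The 4 tested fibroblast and mesothelial markers summed to 12.17 to 12.38 and 11.97 to 12.20, the T cell markers had no tested probe, and of the B cell markers *Ms4a1* alone was tested. The neutrophil marker *S100a8* differed by 0.24 with Ac-LDL (adjusted p = 0.845), and by 0.22 to 0.31 within the pairs. It read 9.11 to 9.27 on the control and 9.34 to 9.49 on the Ac-LDL arrays, higher without overlap, as 2.12% of all genes were. *S100a9* and *Ngp* were not detected, and of 4 eosinophil and mast cell markers 4 were detected on 0 arrays. The part of these cells in the slide differences and in the Ac-LDL differences was not tested. The effect of Ac-LDL on the hypoxia genes was not found to differ between the slides. The interaction term was called for 0 of the 9 genes, with adjusted p from 0.777 to 0.995, and for 0% of all genes, and an unadjusted p under 0.05 was found for 0 of the 9 against 8.23% of all genes.

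Genes with a pattern most like that of *Hif1a* over the 8 arrays were *Lgtn*, LOC100046163, 1110036O03Rik, *Dolk* and *Vps33a*, with Pearson's r between 0.960 and 0.981. Each of them was lower on the second slide, by -0.16 to -0.48, as *Hif1a* was, and the 8 arrays share their slides and groups, so that r is a description only.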

How the data were processed

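The 8 arrays, 4 per group, are of the Illumina Mouse WG-6 v2.0 type. For each probe and array the authors deposited, exported with BeadStudio per the labels, the mean bead intensity (neither background-corrected nor normalized), a detection p-value against the negative controls, a bead standard error and a bead count. The authors normalized in GeneSpring GX by a method not given in the sources used here, and those values were not used. The annotation names no genome build. Of the probes, 36.8% to 38.5% were detected per array, on a median of 43 or 44 beads. The number of arrays limits the precision.

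Background correction and normalization used limma 3.58.1 in R 4.3.3 (neqc, offset 16, log2). Probes with a detection p of at most 0.05 on at least 4 arrays were tested, 17122 probes for 12423 gene symbols. Groups were compared by limma's moderated test without a block, as the study's test was unpaired, with Benjamini-Hochberg adjustment over all tested probes and calls at an adjusted p under 0.05. All adjusted p values are from limma. Single probes were also compared by exact permutation over 70 assignments. The procedure was tested on simulated data. The labels call the samples biological replicates but do not name the animals or cultures behind them, so p-values measure the spread between these samples. Every deposited column of a sample was mapped.

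Between control and Ac-LDL arrays of the same number, deviations from the group means correlated across probes with r of 0.579, 0.479, 0.468 and 0.629, so the numbers were taken to pair the samples, and a fit with the replicate number as a block is given where it changes a call or a count. Much of this goes with the slide, as r was 0.188 to 0.447 between different numbers on 1 slide and at most -0.318 across slides. No signal was identical between 2 arrays for any probe.

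The genes, and the lists for regulation, glycolysis, mitochondria and survival, vessels and iron, matrix, pH and chromatin, sterol synthesis, LXR and PPAR, were chosen with earlier results of these data known. Named beside the 10 genes were, per hypoxia list, the 2 genes with the lowest unadjusted p and any called with or without a block, per lipid list the 1 with the lowest, and the 5 most correlated with *Hif1a*. Cell type markers, *Nos2*, *Apoe*, *Pfkfb4*, *Car9*, *Tfrc* and *Trf* were named after their values were seen. Promoters are from RefSeq.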

Additional observations from a re-analysis of the deposited data

How the results depend on the processing

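None of the 9 tested genes was called under any of 22 alternatives (0 in each), and with arrays left out in turn the count was also 0. *Egln1* was not tested where detection on all 8 arrays or a detection p of at most 0.01 was required. The lowest adjusted p was that of *Pdk1* with the replicate number as a block, 0.149. That block changed no call of a hypoxia gene. Signs did not change for *Hif1a*, *Epas1*, *Pgk1*, *Ldha* and *Pdk1*, but sizes did. With single arrays left out they ran from 0.05 to 0.24, 0.18 to 0.43, 0.02 to 0.26, 0.04 to 0.14 and 0.19 to 0.51 in this order, *Epas1* fell to 0.03 as the mean of its probes and *Pgk1* to 0.0058 with array weights. Of 196 recomputed differences 17 changed sign, and the cause was not tested. *Slc2a1* went to -0.012 with median scaling, -0.011 with array weights and -0.062 within the second slide; *Vegfa* to -0.14 with array weights and -0.022 within the second slide; *Egln3* to 0.12 with array weights; and *Egln1* to -0.11 within the first slide. With single arrays left out, the ranges were -0.041 to 0.063 for *Slc2a1*, -0.22 to 0.23 for *Vegfa*, -0.17 to 0.18 for *Egln3* and -0.044 to 0.22 for *Egln1*. The slide difference of *Egln1* was -0.017 with median scaling and -0.13 to 0.19 with arrays left out. Between the slides, 5 genes were called under each of 5 processing alternatives and 4 to 6 with single arrays left out, a check chosen after seeing the data. The number of probes called with Ac-LDL, 7, moved to 76 with the replicate number as a block, 55 with the slide as a block, 14 without background correction, 14 with median scaling, 0 without a detection filter, 16 with a trended and robust prior, 16 with array weights, 0 with the methods' t-test, 14 within the first slide and 16 within the second, and lay between 0 and 15 with single arrays left out. It was 15 without control replicate 2, 0 without control replicate 4 or Ac-LDL replicates 1, 2 or 3, and 1 without Ac-LDL replicate 4. The median of the wider hypoxia list was -0.094 within the first slide and -0.06 to 0.01 with single arrays left out. The LXR median was 0.34 with an offset of 50 (0.37 to 0.50 with arrays left out), and the PPAR median 0.25 to 0.35 with arrays left out, lowest without Ac-LDL replicate 4. *Bnip3*, undetected, could not be tested, and *Egln1* is limited by its signal near background.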
